A study of Mus musculus with 18 samples.

Results

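The change with age in quadriceps muscle of Cre control mice was examined over all genes measured, by comparing 3 libraries from old mice, aged 17 months, with 3 libraries from young mice, aged 2 months. The 6 libraries were taken by their labels, which name the Cre control genotype and the age, out of 18 libraries in the series. Cre control mice are labelled as strain C57/Bl6 and have Cre recombinase under the skeletal alpha actin promoter, a promoter of muscle fibres, and unaltered Pofut1. Both ages therefore share the Cre transgene, and nothing here measures muscle without it except the floxed control libraries, which carry floxed Pofut1 alleles and no Cre. The third genotype, a knockout, carries both and is designed so that fibres lose Pofut1, a fucosyltransferase that modifies Notch receptors. Floxed control and knockout mice were likewise sampled at 2 and 17 months, with 3 libraries for each age.

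Skeletal muscle consists mainly of multinucleate fibres packed with sarcomeres, and the collagens between the fibres are secreted by fibroblast-like cells rather than by the fibres. Tendon cells, nerve, vessels, immune cells and the Pax7-positive satellite cells that serve as muscle stem cells add smaller amounts of RNA to a whole muscle. With age, muscle is known for loss of fibre mass, weaker regeneration and altered matrix turnover. In such bulk samples a smaller number of cells of a type and less RNA per cell cannot be told apart.

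The 6 libraries held 26613963 to 31440196 counts, and values are given below as CPM, counts divided by scaled library sizes and brought to a common total. Ttn, the gene of titin in the sarcomere, held 16.2 to 22.2% of the counts. The defining fibre genes were abundant in each library, with Acta1, the skeletal muscle actin, at 13093 to 18295 CPM and Ckm, muscle creatine kinase, at 17066 to 22309 CPM. Spearman correlations of gene levels were 0.979 to 0.982 between young libraries, 0.979 to 0.985 between old libraries and 0.971 to 0.980 across ages. The labels give no sex. Xist, which is transcribed from the inactive X, was high in young library 94 (278 CPM) and in old libraries 35 and 99 (260.2 and 303 CPM), and at most 1.18 CPM in the others. Sex, as far as Xist shows it, is therefore unevenly spread over the ages. Young library 93 stood apart in its summed macrophage markers (779 CPM against 333 to 395 CPM in the other 5 libraries) and in its cell cycle genes (272 CPM against 172 to 192 CPM). Old library 99 stood apart in its erythroid genes (2894 CPM against 84.8 to 726 CPM).

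A gene was called changed when its adjusted p was under 0.05 in edgeR's quasi-likelihood test. Of 15224 genes tested, 274 (1.8%) were called, of which 122 (0.801%) were higher and 152 (0.998%) lower in old muscle. The median fold of the called genes was 1.96, and 131 of them changed by at least 2-fold, 45 upward and 86 downward. All 274 had every library of one age above every library of the other, which was so for 3138 of all genes (20.6%). By class, 254 of the called genes were protein-coding and 17 were long noncoding RNAs. The median log2 change over all genes was -0.02. The number called depended on each single library. It was 65 without old library 34, 159 without old library 35 and 41 without old library 99, and 156, 65 and 166 without young libraries 61, 93 and 94. With Xist as a covariate 318 genes were called, and of the genes named below Nat1, Clic5, Thbs4, Loxl3, Mfap4 and Col15a1 were then no longer called, with adjusted p values of 0.0513 to 0.0637. The 6 Cre libraries fitted alone gave 107 calls. DESeq2 called 678 genes, 266 of them among the 274, and the authors' deposited table holds 656 genes with an adjusted p under 0.05, of which 272 were called here.

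**Figure D1:**
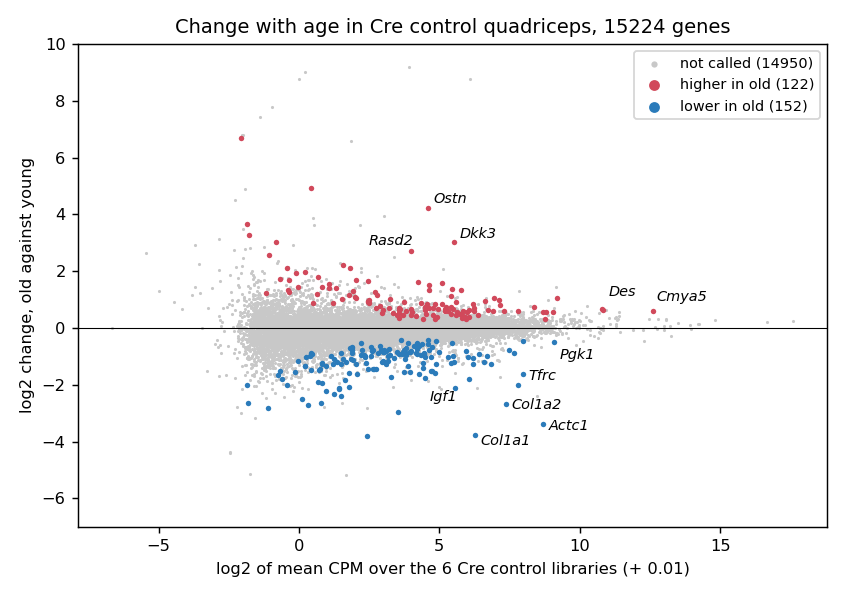
Log2 change from young to old Cre control muscle (y axis) against the log2 of the mean CPM over the 6 libraries (x axis), with one point for each of 15224 genes. Coloured points are the 122 genes called higher and the 152 called lower, and Col1a1 and Actc1 lie below -3 while Ostn and Dkk3 lie above 3.

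Ostn, Dkk3 and Rasd2 had the largest folds among the genes called higher that reached 1 CPM and carry no clone name. Ostn encodes osteocrin, also called musclin, a peptide hormone secreted by muscle and bone, and lies on chromosome 16 of GRCm38 (27307489 to 27351212). Its level was 3.53, 1.92 and 1.87 CPM in young libraries 61, 93 and 94, and 16.1, 65.7 and 54.7 CPM in old libraries 34, 35 and 99. The ages did not overlap, although old library 34 lay well below the other two. The log2 change was 4.22 ± 0.67 (SE), an 18.6-fold rise, with an adjusted p of 0.00866.

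Dkk3, a secreted protein of the Dickkopf family of Wnt modulators, lies on chromosome 7 (112116017 to 112159057). It measured 8.99, 13.3 and 7.5 CPM in the young libraries and 139.8, 46.0 and 58.4 CPM in the old libraries, in the same order. Here old library 34 was the highest and not the lowest, and again no old library fell into the young range. The mean rose from 9.94 ± 3.02 to 81.4 ± 51.0 CPM (SD, n = 3 each), with a log2 change of 3.03 ± 0.44 and an adjusted p of 0.00636. Rasd2 encodes Rhes, a small GTP-binding protein known mainly from the striatum, and lies on chromosome 8 (75213944 to 75224113). Its young values were 4.79, 4.70 and 2.95 CPM and its old values 43.8, 18.1 and 20.5 CPM. That is a 6.60-fold rise, with an adjusted p of 0.00399.

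Among the other genes with the largest rises, Otub2, a deubiquitinase, went from 9.30 ± 1.56 to 28.5 ± 6.12 CPM with an adjusted p of 0.00636. Klhl38, a muscle-enriched member of the Kelch-like family, went from 12.9 ± 3.52 to 36.4 ± 8.99 CPM with an adjusted p of 0.0138. Amy1, an amylase gene with near-identical relatives among which reads may be split, rose 2.98-fold. Srrm4os, a long noncoding RNA, rose 3.21-fold and Cuzd1 2.94-fold. Aox3, an aldehyde oxidase, rose 3.44-fold and Wnt5b, a secreted Wnt ligand, 3.91-fold. Some of this group rested on few reads. Syt9, a synaptotagmin of vesicle release, had 12, 5 and 6 counts in young libraries 61, 93 and 94 and 25, 30 and 44 in old libraries 34, 35 and 99. Nat1, an N-acetyltransferase, had 7, 13 and 11 counts in the young and 25, 37 and 37 in the old libraries.

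The genes called higher with the highest CPM had smaller folds. Cmya5, or myospryn, a large protein of the costamere and Z-disc, measured 5214, 4132 and 5719.6 CPM in young libraries 61, 93 and 94 and 8309.6, 6569 and 7799 CPM in old libraries 34, 35 and 99. Des, the intermediate filament desmin that links Z-discs, measured 1336, 1401 and 1589 CPM in the young and 2634, 1907 and 2130.5 CPM in the old libraries. Both rose by about the same amount, with folds of 1.51 and 1.54 and adjusted p values of 0.037 and 0.0424. Nrap, which ties actin filaments to the ends of myofibrils, rose 1.60-fold with an adjusted p of 0.0498. Mylk2, the skeletal muscle myosin light chain kinase, rose from 375 ± 107 to 779 ± 166 CPM. This 2.08-fold rise was the largest among the 12 called genes with the highest CPM, with an adjusted p of 0.0182. Each of these 4 genes was called in 1 or 2 of the 6 fits that left out one library, and none when the 6 Cre libraries were fitted alone.

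The other 8 of these 12 genes rose by less than 2-fold. Fbxo40 and Asb2, both substrate receptors of ubiquitin ligases in muscle, rose 1.46-fold and 1.67-fold. Nfe2l1, a transcription factor that drives proteasome genes, rose from 359 ± 32.5 to 531 ± 38.8 CPM with an adjusted p of 0.0115. Lamp1, a lysosomal membrane protein, rose 1.26-fold. Map4 (1.5-fold), a microtubule-associated protein, Abcb4 (1.51-fold), a phospholipid transporter, Cbfb (1.77-fold), a partner of Runx factors, and St3gal6 (1.5-fold), a sialyltransferase, complete the 12.

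**Figure D2:**
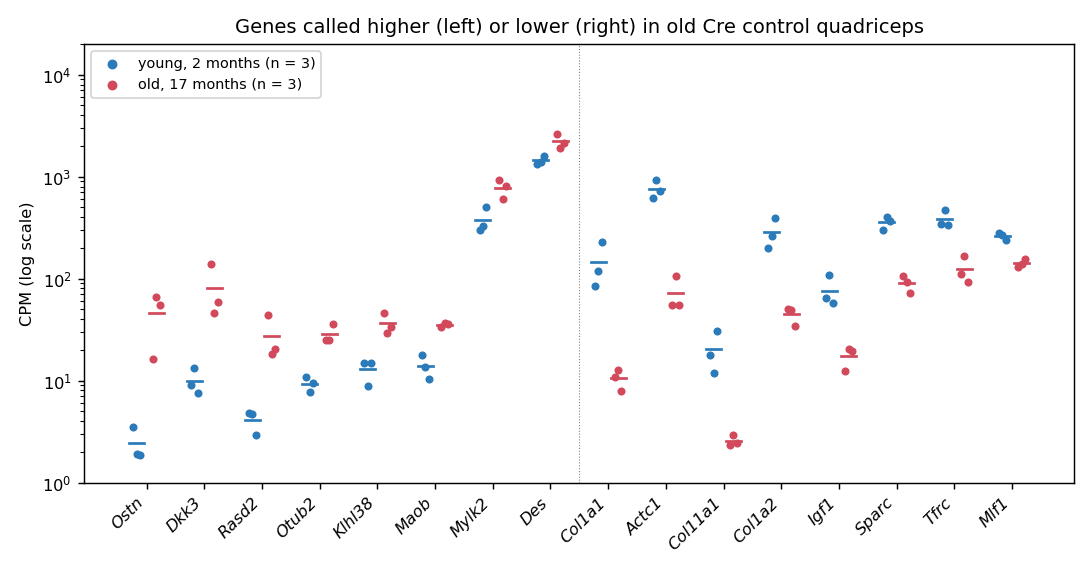
CPM on a log axis for 16 called genes in each of the 6 Cre control libraries, with blue points for the 3 young and red points for the 3 old libraries and bars at the group means. The groups do not overlap for any of the 16 genes, which held for all 274 called genes and so follows from their choice. The fold is largest for Ostn (18.6), Col1a1 (13.7) and Actc1 (10.4).

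The list with the most called genes was that of the extracellular matrix, and they fell. Of 51 measured genes on the matrix list, 21 (41.2%) were called lower and 0 higher, against 1.8% called among all genes in either direction. The list's median log2 change was -1.04, against -0.02 over all genes. Of its 51 members 40 had every old library below every young one, against 1596 of all 15224 genes. Their summed level was 3387, 4175 and 4144 CPM in young libraries 61, 93 and 94 and 1755, 1656 and 1542 CPM in old libraries 34, 35 and 99. The highest old sum, in library 34, was well short of the lowest young sum, in library 61.

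The fibrillar collagens moved most. These form the tensile fibres of the matrix, with type I and III chains as the bulk and type V and XI chains setting the fibril diameter, and 6 of their 7 measured genes were called lower. Col1a1, on chromosome 11 (94936224 to 94953042), measured 84.3, 119.9 and 228 CPM in young libraries 61, 93 and 94 and 10.9, 12.8 and 7.83 CPM in old libraries 34, 35 and 99. Even the lowest young library lay several-fold above the highest old one. The log2 change was -3.77 ± 0.59, with an adjusted p of 0.00782. Col1a2, the second type I chain, measured 199, 263 and 394 CPM in the young and 50.8, 49.5 and 34.3 CPM in the old libraries. Both type I chains were highest in young library 94 and lowest in old library 99. Col1a2 fell by 2.67 ± 0.49 on the log2 scale with an adjusted p of 0.0151.

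Col11a1 measured 17.9, 11.8 and 30.8 CPM in the young and 2.36, 2.93 and 2.46 CPM in the old libraries, and fell by 2.96 ± 0.36 on the log2 scale with an adjusted p of 0.00358. The type V chains fell too, Col5a2 from 104 ± 13.3 to 30.3 ± 2.23 CPM, Col5a1 from 39.7 ± 7.48 to 14 ± 3.27 CPM and Col5a3 from 31.1 ± 4.54 to 11.6 ± 0.466 CPM. Col3a1 was the fibrillar collagen gene that missed the threshold. Its young values were 490.3, 773 and 527 CPM and its old values 114, 134 and 89.1 CPM, with a log2 change of -2.41 ± 0.62 and an adjusted p of 0.058. Col1a1, Col1a2 and Col3a1 together made up 22.9 to 27.7% of the list's summed level in young and 8.51 to 11.9% in old libraries. Without these 3 genes the sum was still 2614 to 3019 CPM in young against 1410.0 to 1580.0 CPM in old libraries.

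The promoters of the called fibrillar collagen genes are shown because these genes fell together. RefSeq's promoter table for GRCm38.p6 holds a window for 4 of the 6, and the windows of 3 of these overlap no exon annotated in GENCODE M21. The 150 bases before the start are printed in the direction of the gene, with CCAAT or its reverse complement ATTGG in capitals. They lie at chr2:27886275-27886424 on the plus strand for Col5a1, chr9:20815068-20815217 on the minus strand for Col5a3 and chr3:114030390-114030539 on the plus strand for Col11a1.
Col5a1: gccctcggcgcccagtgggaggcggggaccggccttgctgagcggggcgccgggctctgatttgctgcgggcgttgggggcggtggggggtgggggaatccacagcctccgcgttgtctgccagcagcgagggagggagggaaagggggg
Col5a3: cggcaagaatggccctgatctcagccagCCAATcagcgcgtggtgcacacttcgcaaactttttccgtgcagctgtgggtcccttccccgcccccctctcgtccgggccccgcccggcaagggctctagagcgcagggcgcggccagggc
Col11a1: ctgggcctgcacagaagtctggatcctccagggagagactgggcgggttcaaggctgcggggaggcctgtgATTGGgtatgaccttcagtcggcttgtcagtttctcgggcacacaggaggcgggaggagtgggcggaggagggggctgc
The CCAAT box is a common promoter element bound by the factor NF-Y. It begins 122 bases before the start in Col5a3 and 79 bases before it in Col11a1, and does not occur in the window of Col5a1. Searched on both strands over the 250 bases before the start, it occurs in 7 of the 13 called matrix genes that have a window, in 12 of 34 measured matrix genes, in 39.7% of the 11216 tested genes with a window and in 33.8% of all 32851 promoters. These counts describe letters in a window and were not tested.

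Enzymes that cross-link collagen fell with their substrates. Lox, lysyl oxidase, went from 29.0 ± 7.40 to 9.42 ± 1.81 CPM, Loxl2 from 14.9 ± 1.60 to 4.52 ± 0.651 CPM and Loxl3 from 6.0 ± 0.763 to 3.50 ± 0.483 CPM, with adjusted p values of 0.00636, 0.0105 and 0.0488. Loxl1 was not called. Both genes of procollagen trimming on the list were called lower. Pcolce, which enhances removal of the C-terminal propeptide, fell 2.05-fold and Adamts2, which cuts the N-terminal propeptide, 2.52-fold. Adamts3, which is not on the list, was also called lower, with a log2 change of -1.10 ± 0.27 and an adjusted p of 0.0488. It was named after its values were seen. The enzymes and the chaperone that prepare collagen inside the cell did not pass the test. P4ha1 and P4ha2, prolyl hydroxylase subunits, had log2 changes of 0.10 ± 0.16 and 0.22 ± 0.14, and Serpinh1, the collagen chaperone HSP47, of -0.99 ± 0.30 with an adjusted p of 0.108. Together with Thbs1, thrombospondin 1 (0.07), these hydroxylase genes were the 3 members of the list without a negative change, although that of Thbs1 was -0.085 with Xist as a covariate.

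Basement membrane genes formed a second group, with 4 of 6 called lower. The type IV collagen chains of this group, Col4a1 and Col4a2, lie head to head on chromosome 8. Their annotated starts overlap by 22 bases on opposite strands. Col4a1 measured 177, 148 and 164 CPM in young libraries 61, 93 and 94 and 80.6, 59.1 and 60.7 CPM in old libraries 34, 35 and 99. Col4a2 measured 95, 76.6 and 89.9 CPM and 53.6, 35.1 and 39.8 CPM. In both genes young library 61 was the highest and old library 34 the highest of its age. They fell 2.44-fold and 2.04-fold, with adjusted p values of 0.0157 and 0.0445. Nid1, nidogen, which joins laminin to type IV collagen, fell 1.99-fold and Col15a1, of the basement membrane zone, 2.35-fold. On the list of the dystrophin complex and laminins, Sntb1, a syntrophin, was the single gene called out of 23, falling 2.69-fold. Lama2, the laminin chain of the fibre's basement membrane, fell short of the threshold, with a log2 change of -0.63 ± 0.16 and an adjusted p of 0.0581.

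Other matrix genes called lower were Sparc, a collagen-binding glycoprotein, from 359 ± 51.7 to 90.4 ± 16.7 CPM, and Vcan, the proteoglycan versican, from 41.1 ± 7.35 to 17.1 ± 1.83 CPM. Col8a1 and Col12a1 each fell 2.30-fold. Mfap4, a microfibril-associated protein, fell 4.18-fold. Fbn2, the fibrillin of developing tissues, had 17, 17 and 32 counts in young libraries 61, 93 and 94 and 3 in each old library, with an adjusted p of 0.04. The 3 chains of type VI collagen, which surrounds the fibres, had log2 changes between -1.27 and -1.17 with separated ages in all 3, but none was called. Of 19 matrix remodelling enzymes, 0 were called, although 17 had a negative change. In edgeR's test 7 of the 19 had an unadjusted p under 0.05, against 2531 of all 15224 genes. DESeq2 called 1 of these enzymes, Mmp16. In that group Mmp2, a gelatinase, had a log2 change of -0.80 ± 0.27 and Ctsk, a collagen-degrading cathepsin, of -1.25 ± 0.43.

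**Figure D3:**
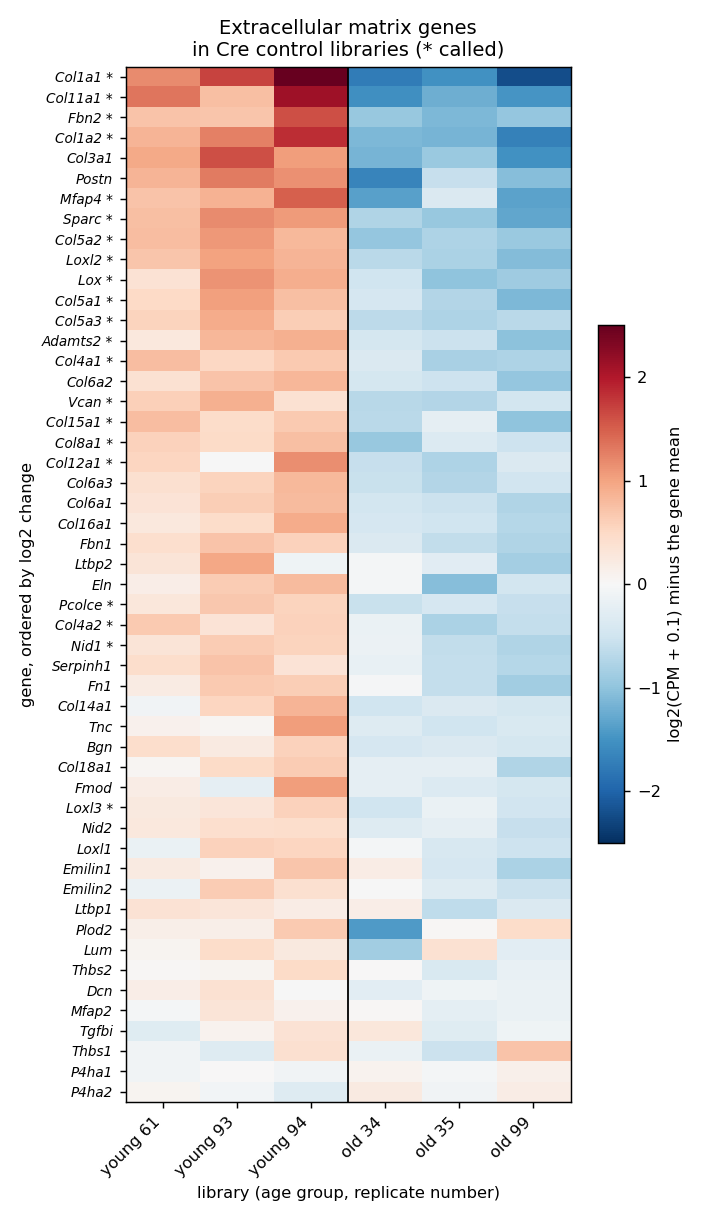
Colour gives log2(CPM + 0.1) minus the mean of each gene for the 51 measured matrix genes (rows, ordered by log2 change) in the 6 Cre control libraries (columns). The 3 young columns are red and the 3 old columns blue over most rows, with 21 genes starred as called, and the pattern ends near the bottom, at P4ha1 and P4ha2.

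The number of matrix genes called varied with the libraries used, while the median change varied little. Leaving out one Cre library at a time left 5, 7 and 3 genes called (old 34, 35 and 99) or 11, 7 and 10 (young 61, 93 and 94), and the median log2 change stayed between -1.19 and -1.002. It was -0.97 with Xist as a covariate, with 18 genes called. DESeq2 called 35 of the 51. In the 6 left-out fits and the Xist fit 47 to 49 of the 51 genes had a negative change.

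Markers of the cells that make matrix were examined beside these genes. Of 18 markers of fibro-adipogenic cells, the connective tissue progenitors of muscle, 2 (11.1%) were called lower, against 1.8% of all genes. They were Cxcl14, a chemokine, and Col15a1, which is also counted on the matrix list. The summed level of the 18 markers was 1730 to 1981 CPM in young and 1441 to 1683 CPM in old libraries, so the ages were separate. Pdgfra, the receptor that defines these cells, had a log2 change of -0.41 ± 0.15, and Dcn, the proteoglycan decorin, of -0.37 ± 0.12, neither called. No marker on the list was at 0 in all libraries. Whether the number of these cells contributes to the matrix result was not tested.

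Of 12 tendon markers, 5 (41.7%) were called lower, against 1.8% of all genes. The summed level was 238 to 377 CPM in young against 152 to 162 CPM in old libraries. Tnmd, tenomodulin, a membrane protein of tendon cells, measured 34.8, 34.1 and 35.0 CPM in young libraries 61, 93 and 94 and 7.31, 14.5 and 8.75 CPM in old libraries 34, 35 and 99. Kera, the proteoglycan keratocan, measured 36.1, 35.1 and 43.2 CPM and 9.04, 19.2 and 11.6 CPM. Old library 35 was the highest of its age for both. The log2 changes were -1.76 ± 0.30 and -1.52 ± 0.24, with adjusted p values of 0.0115 and 0.00944. Thbs4 and Cilp2, matrix proteins of tendon and cartilage, and Col11a1, which is also counted on the matrix list, were the other 3. Mkx, a transcription factor of tendon, missed the threshold at an adjusted p of 0.0501. Between 1 and 5 of the 12 were called when one library was left out, with 2, 5 and 1 without old libraries 34, 35 and 99 and 4, 5 and 3 without young libraries 61, 93 and 94. The amount of tendon in each sample is not given by the labels, and its part in the matrix result was not tested.

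Actc1, cardiac alpha actin, is the actin of heart and of developing skeletal muscle, and its fold was second to that of Col1a1 among the falling genes chosen for their fold. It lies on chromosome 2 (114047282 to 114053548). Its level was 612, 931 and 717 CPM in young libraries 61, 93 and 94 and 54.5, 106 and 55.4 CPM in old libraries 34, 35 and 99, a 10.4-fold fall with an adjusted p of 0.0133. Its skeletal counterpart Acta1 was 16000.0 ± 2654 CPM in young and 15748 ± 1234 CPM in old muscle, with an adjusted p of 0.954. A long noncoding RNA with a clone name, C130080G10Rik, was chosen after its values were seen because it starts 787 bases from the start of Actc1 on the opposite strand. It measured 11.6, 12.9 and 5.37 CPM in the young and 0.589, 1.12 and 0.384 CPM in the old libraries, a log2 change of -3.79 ± 0.67 with an adjusted p of 0.0132. Actc1 was the single gene called out of 23 on the list of immature and regenerating fibre genes. Myh3 and Myh8, the embryonic and perinatal myosins, were at 22.1 ± 0.984 and 48.5 ± 17.5 CPM in young and 20.5 ± 4.70 and 42.3 ± 11.7 CPM in old muscle.

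Igf1, the growth factor that stimulates muscle and bone growth, fell as well. It lies on chromosome 10 (87858265 to 87937042) and measured 64.1, 107 and 57.3 CPM in young libraries 61, 93 and 94 and 12.3, 20.6 and 19.5 CPM in old libraries 34, 35 and 99. No old library reached 0.5 of the lowest young value. The fall was 4.36-fold, with an adjusted p of 0.00866. Pappa2, a protease that frees IGF from its binding proteins, fell by the same fold, from 4.4 ± 0.9 to 1.01 ± 0.0918 CPM. Of 36 measured genes of insulin and growth factor signalling 11.1% were called, against 1.8% of all genes. Of these, 2 were called lower, Igf1 and Fstl1, a follistatin-like secreted protein (2.28-fold). Another 2 were called higher, Gdf11, a TGF-beta family ligand, from 4.22 ± 0.837 to 9.48 ± 3.22 CPM, and Tgfb3 from 34.8 ± 0.581 to 49.5 ± 6.15 CPM.

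In the Wnt pathway, 4 of 35 genes (11.4%, against 1.8% of all genes) were called and they split by direction. Dkk3 and Wnt5b rose, as given above. Wnt5a, a ligand of noncanonical Wnt signalling, fell 1.92-fold and Dkk2, another Dickkopf protein, 2.39-fold, with adjusted p values of 0.029 and 0.0329. Wisp1, a matricellular protein named as a Wnt target, was outside that list and fell from 3.23 ± 1.22 to 0.692 ± 0.368 CPM.

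The remaining genes with large falls did not share a list, and Cilp2 among them is the tendon marker given above. Ttyh1, a tweety family membrane protein, fell 6.54-fold and Nrk, a kinase, 5.71-fold, from means of 2.15 and 1.82 CPM. Cilp2 fell 5.20-fold and Syt12, a synaptotagmin, 4.96-fold. Adamtsl2, a secreted protein that binds fibrillin and LTBP1, fell 4.4-fold. Of the abundant genes, Tfrc, the transferrin receptor that imports iron, measured 343, 466 and 338 CPM in the young and 111, 166 and 92.5 CPM in the old libraries. That 3.10-fold fall had an adjusted p of 0.0345. Mlf1, myeloid leukaemia factor 1, fell 1.84-fold with an adjusted p of 0.00652. Pgk1, the X-linked glycolytic enzyme phosphoglycerate kinase, fell 1.42-fold and was the single gene called out of 26 glycolysis and glycogen genes. Clic5, a chloride channel family protein, fell 1.38-fold.

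Of 18 fast fibre and 18 slow fibre genes, 0 were called in edgeR's test, with 4 and 1 at an unadjusted p under 0.05. DESeq2 called 0 and 1. Over all 15224 genes 2531 had an unadjusted p under 0.05 in edgeR's test. The counts at this level in the lists below are to be read against that share. Myh4, the myosin of the fastest fibres, was 96145 ± 16199 CPM in young and 111310.0 ± 25272 CPM in old muscle. Myh1 was 7801 ± 3627 and 9469.9 ± 1179.5 CPM, and Myh2 1520.4 ± 863 and 2381 ± 474 CPM. Myh7, the slow myosin, ranged from 5.12 to 336 CPM among young and from 6.29 to 198 CPM among old libraries. The ages overlapped. Des was the single gene called out of 15 defining fibre genes.

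Tfeb, the transcription factor of lysosome genes, rose from 24.2 ± 6.17 to 43.4 ± 4.20 CPM and was the single gene called out of 23 ubiquitin and autophagy genes. Fbxo32 and Trim63, the ubiquitin ligases atrogin-1 and MuRF1, had log2 changes of 0.78 ± 0.25 and 0.60 ± 0.22 with adjusted p values of 0.128 and 0.189. Of 21 neuromuscular junction genes and 27 denervation genes 0 were called by edgeR, with 0 and 5 at an unadjusted p under 0.05 and 0 and 3 called by DESeq2. Chrna1 and Chrng, subunits of the acetylcholine receptor, had log2 changes of -0.40 ± 0.28 and -0.78 ± 0.85. Of 53 nuclear genes of oxidative phosphorylation, 0 were called, with a median log2 change of -0.13, 1 gene at an unadjusted p under 0.05 and 0 called by DESeq2. Genes of fatty acid oxidation, lipid synthesis, the circadian clock, calcium handling, heat shock, oxidative stress, polyamines, antigen presentation and the ribosome also gave 0 calls each in edgeR's test, with 0 to 9 at an unadjusted p under 0.05. DESeq2 called Cry1 and Cry2 of the clock and Cacna1s and Cacng1 of calcium handling in these lists. Cacna1s and Cacng1, subunits of the dihydropyridine receptor that triggers contraction, missed the threshold in edgeR's test, with log2 changes of 0.59 ± 0.16 and 0.61 ± 0.15 and adjusted p values of 0.0718 and 0.0553.

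In the Notch pathway, which Pofut1 serves, 0 of 32 genes were called by edgeR and 1, Numb, by DESeq2. In edgeR's test 6 of the 32 had an unadjusted p under 0.05, against 2531 of all 15224 genes. Pofut1 itself was at 13.8, 16.2 and 19 CPM in young and 16.3, 15.8 and 18.3 CPM in old libraries, a log2 change of 0.04 ± 0.15. The receptors Notch1, Notch2 and Notch3 had log2 changes of -0.09 ± 0.20, -0.14 ± 0.19 and -0.31 ± 0.33, and the targets Hes1 and Heyl of 0.35 ± 0.26 and -0.55 ± 0.33. Numb, an inhibitor of Notch, was nearest to the threshold, with a log2 change of 0.39 ± 0.11 and an adjusted p of 0.0867. The summed level of the pathway was nevertheless 434 to 487 CPM in young and 567 to 700 CPM in old libraries. Mib1, the ubiquitin ligase that activates Notch ligands, was at 116 to 154 CPM in young and 264 to 402 CPM in old libraries with an adjusted p of 0.3. Without Mib1 the sums were 305 to 332 CPM and 298 to 323 CPM.

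Satellite cell markers gave 1 call among 19, Des, which fibres also express, and it rose. Pax7 was 1.32 ± 0.388 CPM in young and 0.689 ± 0.199 CPM in old muscle, with an adjusted p of 0.217. Calcr, Megf10 and Myf5, other genes of these cells, had log2 changes of -1.53 ± 0.55, -1.27 ± 0.42 and -0.84 ± 0.30, none of them called. Of the 19 markers 14 had a negative change, with a median log2 change of -0.44. In 6 every old library lay below every young one, and in 2 the reverse, against 1596 and 1542 of all 15224 genes. An unadjusted p under 0.05 in edgeR's test was reached by 7 of the 19, against 2531 of all 15224 genes. Without Des the summed markers were 141 to 145 CPM in young and 132 to 155 CPM in old libraries, so the sums overlapped.

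Cell cycle and senescence genes held 1 call each (2.63% and 4.35%, against 1.8% of all genes). Of 38 cell cycle genes 1 was called, Rrm1, a subunit of ribonucleotide reductase, which rose 1.28-fold, while 30 of the 38 had a negative change and the median was -0.73. Mki67, the proliferation marker Ki-67, was 8.39, 27.7 and 9.22 CPM in young and 2.75, 5.80 and 8.90 CPM in old libraries, so the ages overlapped. Young library 93, high in macrophage markers, was also the high one here. Outside the list, the cyclins Ccnd2 and Ccnd3 fell 1.81-fold and 1.82-fold, with adjusted p values of 0.00866 and 0.019. They were named after their values were seen. Cdkn1b, the cyclin kinase inhibitor p27, fell 1.55-fold and was the single gene called out of 23 senescence and p53 genes. Cdkn1a, the inhibitor p21, was 0.741 ± 0.263 and 0.668 ± 0.255 CPM. Cdkn2a was not among the genes tested. Pkhd1, a gene of cilia, had a log2 change of -0.04.

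Markers of endothelial cells, smooth muscle, fat cells, macrophages, T cells, B cells, neutrophils and red cells gave 0 calls each in edgeR's test, with 0 to 3 at an unadjusted p under 0.05. The change was negative for 15 of 16 endothelial, 10 of 14 smooth muscle and 24 of 25 macrophage markers. The medians of these 3 lists were -0.20, -0.17 and -0.28. The summed macrophage markers were 779 CPM in young library 93 but 333 and 383 CPM in young libraries 94 and 61. They were 374 to 395 CPM in old libraries, so the ages overlapped. The change was positive for 6 of 8 B cell and 8 of 8 red cell markers. DESeq2 called Lyve1, Igkc, Igj and Hbb-b1 in these lists. In the authors' deposited comparison of the same groups the adjusted p was 0.0105 for Lyve1, 0.424 for Igkc and 0.309 for Igj. Hbb-b1 rested on old library 99, with 10645 counts against 6 to 38 in the others. Lyve1, found on lymphatic vessels and resident macrophages, was at 19, 24.8 and 16.1 CPM in young and 12.9, 8.55 and 9.90 CPM in old libraries, with an adjusted p of 0.058. Pmp22, a myelin protein, fell from 20.2 ± 2.06 to 11.7 ± 0.293 CPM and was the single gene called out of 11 Schwann cell markers, though connective tissue cells express it too. In the interferon response 2 of 31 genes (6.45%, against 1.8% of all genes) were called. Mx2, of a family of antiviral GTPases but not classed as protein-coding here, fell 2.79-fold, from 2.40 ± 0.14 to 0.851 ± 0.263 CPM. Gbp7, a guanylate-binding protein, fell 2.98-fold. Ndn, necdin, fell 2.01-fold and was the single gene called out of 15 imprinted growth genes. Jun, a subunit of AP-1, rose from 28.4 ± 3.52 to 45.2 ± 1.80 CPM and was the single gene called out of 32 muscle transcription and histone regulators. In the 12 lists with a single call, that call was 2.63 to 9.09% of the members, against 1.8% of all genes. Of these 12 lists 1, that of Schwann cells, kept a call whichever library was left out.

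**Figure D4:**
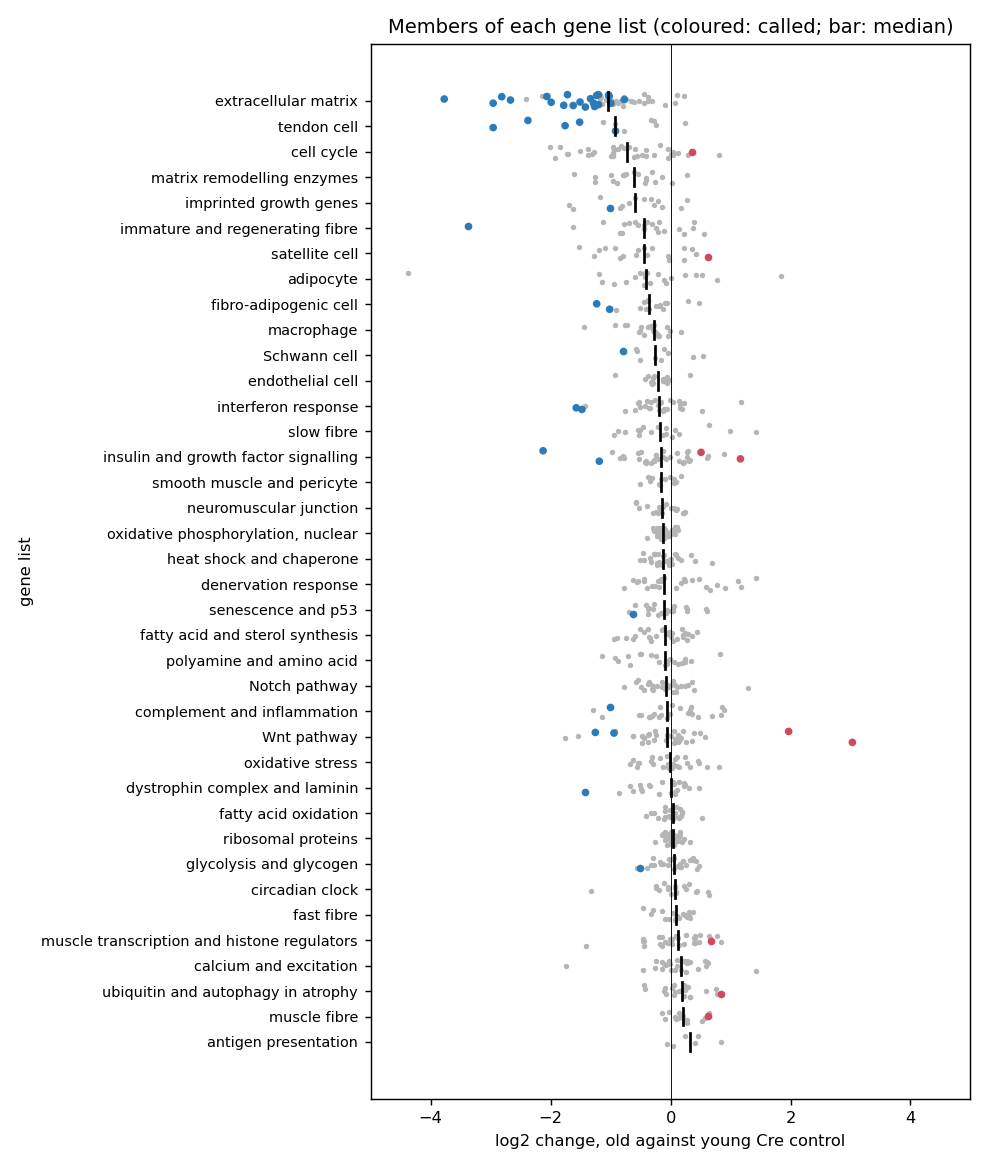
Log2 change from young to old Cre control muscle (x axis) for the members of 38 gene lists (rows, ordered by their median), with called genes coloured, genes not called in grey and a bar at the median. The matrix list, at a median of -1.04, holds 21 coloured points on the left, the tendon list 5, and most other lists centre within 0.5 of 0.

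A small set of genes was called in each of the 6 fits that left out one Cre control library. It numbered 25, with 14 higher and 11 lower in old muscle. Besides Ostn, Dkk3, Rasd2, Otub2, Col1a1, Col11a1, Lox, Igf1, Mlf1, Pmp22 and Ccnd2, it held several genes named after this result was seen. Maob, monoamine oxidase B, measured 17.8, 13.6 and 10.4 CPM in young libraries 61, 93 and 94 and 33.2, 36.7 and 35.8 CPM in old libraries 34, 35 and 99. That 2.53-fold rise had an adjusted p of 0.00553. Ccndbp1, a cyclin D-binding protein, rose 1.78-fold with little spread, from 16.8 ± 0.806 to 30.0 ± 0.694 CPM. Plekhb1 rose 2.58-fold, Prkcz, an atypical protein kinase C, 2.69-fold, Fam19a5, a secreted peptide, 2.12-fold and Ric3, a chaperone of acetylcholine receptors, 1.90-fold. Cog6, a Golgi tethering subunit, rose 1.56-fold and Ppfibp1, a liprin, 1.61-fold. Pcsk5, a proprotein convertase, fell 2.70-fold, Ndrg4 2.27-fold and Itgbl1, an integrin beta-like secreted protein, 2.05-fold. The other 3 carry clone or model names. Of the 25, 24 were also called in floxed and 15 in knockout ageing.

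The same ages were compared in the floxed controls, whose libraries are not shared with the Cre controls, although all groups share one estimate of spread in the fit. There 1605 genes (10.5%) were called, 674 higher (4.43%) and 931 lower (6.12%). The 209 genes called in both genotypes were 76.3% of the Cre calls and 13% of the floxed calls, and all 209 changed in the same direction. Of the 274 Cre calls, 273 had the same sign in floxed controls, the exception being Kif2a, a kinesin that takes apart microtubules (-0.41 and 0.03). The median log2 change of the genes called higher in Cre controls was 0.80 there and 0.69 in floxed controls, and that of the genes called lower was -1.09 and -1.13. These genes were chosen by their Cre control values, so a smaller value in another genotype does not by itself show a weaker change. Col1a1 changed by -3.77 and -3.47, Actc1 by -3.38 and -4.02, Ostn by 4.22 and 4.82 and Dkk3 by 3.03 and 2.95.

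The difference in ageing between the control genotypes was tested gene by gene. It passed the threshold for 0 of 15224 genes (0%) in edgeR's quasi-likelihood test, with 906 at an unadjusted p under 0.05. DESeq2 called 1, Hspb6, a small heat shock protein, whose log2 change was 0.12 ± 0.16 in Cre controls and 1.27 in floxed controls. The greater number of calls in floxed controls does not by itself measure a larger change. With 3 libraries for each age, 0 calls for the difference cannot exclude one either. On the matrix list the median log2 change was -1.04 in Cre and -1.47 in floxed controls, with 21 and 42 of 51 genes called lower. Over all genes it was -0.02 and -0.01. These list values were not tested against each other. Among the Cre calls above a mean of 10 CPM, Tfrc had the largest difference in value, with -1.63 in Cre and -0.17 in floxed controls. The difference was -1.47 ± 0.50 with an adjusted p of 0.764.

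Ageing in the knockout was called for 166 genes (1.09%), 84 higher (0.552%) and 82 lower (0.539%). Of the 274 Cre calls, 52 were also called there, all in the same direction, which is 19% of the Cre calls and 31.3% of the knockout calls. The sign was shared by 253 of the 274, and the median log2 change was 0.37 for the genes higher and -0.60 for the genes lower in old Cre controls. The difference between Cre control and knockout ageing passed the threshold for 0 genes (0%) in edgeR's test, with 1095 at an unadjusted p under 0.05 and 20 called by DESeq2. Otub2, which rose 3.06-fold in Cre controls, and Col8a1, which fell 2.30-fold there, were among those 20, with log2 changes in the knockout of 0.15 and 0.40.

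**Figure D5:**
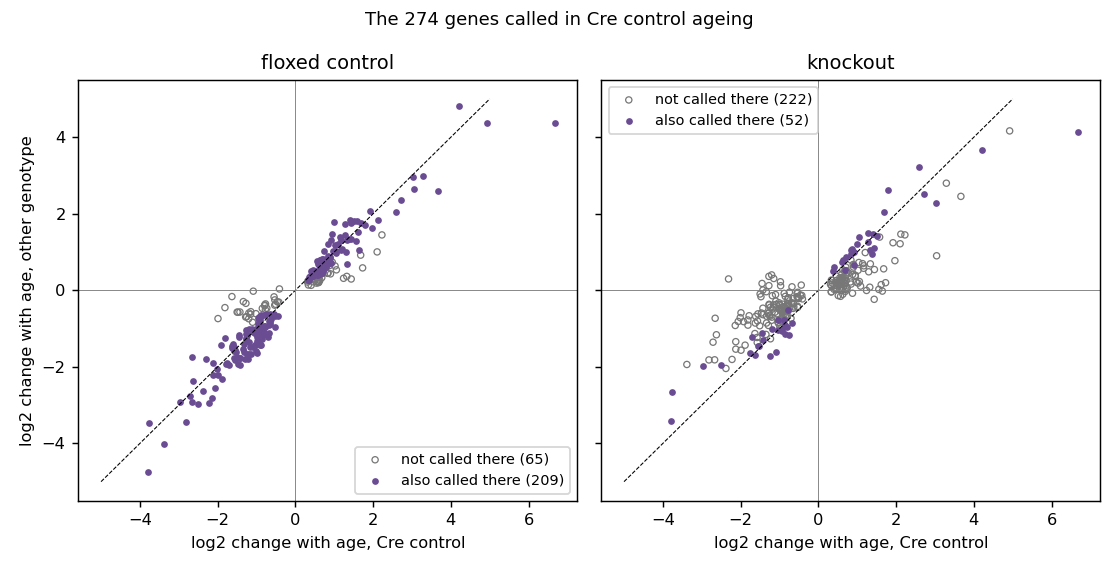
Log2 change with age of the 274 genes called in Cre controls (x axis) against their change in floxed controls (left) and in the knockout (right), with filled points for genes also called there and a dashed line of equal change. Points on the left follow the line, with 209 filled, and points on the right lie mostly nearer to 0, with 52 filled.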

How the data were processed

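Quadriceps RNA depleted of ribosomal RNA was made into ScriptSeq v2 libraries, per the labels' protocols. The submitters' processing notes name STAR, HTSeq and DESeq2 and the builds GRCh38.p5 and GRCm38.p4 without stating versions, options or strand. The count values are raw counts per gene as deposited, for 15224 genes, and a symbol's reads from an overlapping or near-identical gene may be mixed in. The normalized signal columns deposited by the authors equal the counts over a constant for each library and were not tested. The log2 fold changes and adjusted p-value columns deposited by the authors were used only where named.

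Tests were run in R 4.3.3 with edgeR 4.0.16 (quasi-likelihood, trimmed mean of M values, filterByExpr at a minimum count of 10, which removed no gene) and 1 mean for each of 6 groups over 18 libraries, with 12 residual degrees of freedom. P values were adjusted by Benjamini and Hochberg over all genes, and an adjusted p under 0.05 was called. The biological coefficient of variation was 20.1%. Standard errors were obtained from each log2 change and its F statistic. The labels do not say that each library is a separate animal, so p values measure the spread between these samples. Replicate pairs differed by 31.8 to 73.5 times the variance of counting, so no pair agreed within counting noise. Positions are from GENCODE M21 on GRCm38, matched for 14054 genes by Entrez number. The code was tested on simulated data.

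The named genes are the 12 called genes with the largest fold and the 12 most abundant ones in each direction, with at least 1 CPM for the former, separated libraries and no clone name. To these come up to 6 members per list with the smallest p, any called, and a fixed set including Notch genes and myosins. The comparison, the 43 gene lists and this rule were chosen with earlier results of these data known. Alternatives were DESeq2 1.42.0, RLE scaling, no filter, a mean of at least 1 CPM, the compared groups alone, Xist as a covariate and leaving out each library, and, chosen after seeing the data, leaving out X and Y genes.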

Additional observations from a re-analysis of the deposited data

How the results depend on the processing

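The 274 calls of Cre control ageing became 678 with DESeq2 and 107 (37 higher, 70 lower) with the 6 Cre libraries alone, and 41 to 166 without one Cre library. RLE scaling gave 268, Xist as a covariate 318, a mean of at least 1 CPM 275, no filter 274 and leaving out X and Y genes 257. The split of higher against lower calls moved from 122 and 152 to 25 and 16 without old library 99, and to 88 and 71 without old library 35. None of the 98 called genes named changed direction under any of these settings. Their ages were separated in all 6 libraries, so leaving out a library could hardly reverse them. Of the 98, 64, 42 and 72 were no longer called without old libraries 34, 35 and 99. Without young libraries 61, 93 and 94 it was 46, 60 and 42, and with the 6 Cre libraries alone 49. Of all 274 calls, 67 were made in none of the fits that left out a Cre library. The difference from floxed ageing stayed at 0 calls in edgeR, also without any one library (0 to 0), and DESeq2 gave 1. The difference from knockout ageing gave 20 with DESeq2, 1 with Xist as a covariate and 0 to 1 without one library. The cause was not tested. Changes of sign were seen in 10 of the named genes that were not called. With Xist as a covariate the log2 change was -0.010 for Pofut1, 0.014 for Acta1, -0.085 for Thbs1 and 0.24 for Pkhd1. When one library was left out it ranged from -0.34 to 0.16 for Cdkn1a, -0.068 to 0.16 for Pofut1, -0.14 to 0.077 for Acta1, -0.26 to 0.092 for Notch1, -2.88 to 0.32 for Myh7, -0.30 to 0.026 for Myh3, -0.43 to 0.13 for Myh8, -0.37 to 0.24 for Pkhd1, -0.37 to 0.31 for Thbs1 and -0.0065 to 0.25 for Hspb6. No paired analysis was possible because each library has its own number and none is shared between the ages. Counts under about 10 per library, as for Fbn2, Syt9 and Nat1, limit the precision of those folds.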

Other observations

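Immunoglobulin transcripts were near the counting floor in young Cre control muscle and present in old muscle without passing the adjusted threshold. Igkc, the kappa light chain constant region, had 2, 1 and 3 counts in young libraries 61, 93 and 94 and 63, 512 and 80 counts in old libraries 34, 35 and 99, with an adjusted p of 0.081 in edgeR's quasi-likelihood test. Igj, the joining chain of secreted antibody, had 4, 6 and 5 counts in the young and 28, 163 and 45 counts in the old libraries, with an adjusted p of 0.112. Old library 35 was the highest for both, and the ages did not overlap. In floxed controls the log2 changes with age were 6.49 for Igkc and 3.87 for Igj, called at adjusted p values of 0.0237 and 0.0335.

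Hbb-b1, a beta haemoglobin gene with near-identical relatives, had 10645 counts in old library 99 and 6 to 38 counts in the other 5 Cre control libraries, although all mice are labelled with the same strain. Hba-a1 was 2170.1 CPM in old library 99 and 60.7 to 505 CPM in the others.

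Lep, the fat cell hormone leptin, was 0.804, 5.29 and 2.91 CPM in young libraries 61, 93 and 94 and 11.5, 9.98 and 11.1 CPM in old libraries 34, 35 and 99, with an adjusted p of 0.207, and it was picked after its values were seen. Of the 22 fat cell markers 16 had a negative change, with a median log2 change of -0.41. In 3 every old library lay below every young one and in 1 the reverse, against 1596 and 1542 of all 15224 genes. The summed markers overlapped at 1382 to 2411 CPM and 1363 to 3159 CPM.

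Of 29 genes on the list of calcium handling and excitation 0 were called by edgeR and 2 by DESeq2. In edgeR's test 9 of the 29 had an unadjusted p under 0.05, against 2531 of all 15224 genes. Outside that list 4 called genes were picked after their values were seen. Slc8a1 and Slc8a3, sodium-calcium exchangers, rose from 31.7 ± 0.647 to 52.8 ± 8.02 CPM and from 66.6 ± 21.5 to 129 ± 10.1 CPM (SD, n = 3 each). Camk2b, a calcium-dependent kinase, rose 1.79-fold, and Ryr3, a ryanodine receptor, fell 2.42-fold.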
